A study of Mus musculus with 29 samples.

Results

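The comparison described here set the RNA of E17.5 mouse pallium lacking BAF155 and BAF170 (dcKO) against control pallium, and it covers 7 of the 29 samples of the series, chosen by their labels: 4 control libraries (replicates 1 to 4) and 3 dcKO libraries (replicates 2 to 4). Both groups were C57BL/6J embryos with no treatment in their labels, described by the study as littermates, and the labels call the tissue embryonic cortex. The dcKO embryos carried floxed Baf155 and floxed Baf170 alleles (Baf155 fl/fl; Baf170 fl/fl) with the hGFAP-Cre driver. The genotype field of the labels reads the same for all 7 libraries, so the letter in each title (C or M) sets the group, and the alleles that the controls carry are not given in the sources used here. The hGFAP promoter drives Cre in radial glia, first in the medial pallium and later in the dorsal and lateral pallium. Cells born before recombination, and cells outside this lineage such as vessels and microglia, therefore keep both genes in the dissected tissue. RNA was sequenced from whole tissue, so fewer cells of a type and less RNA per cell cannot be told apart. The comparison asks which genes respond to loss of the complexes in late corticogenesis, and the genes and pathways described here lie mostly outside the neurogenesis, proliferation, cell cycle and Wnt lists of the study.

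BAF (mSWI/SNF) complexes are ATP-dependent chromatin remodelers that move nucleosomes and open or close regulatory DNA. BAF155 (Smarcc1) and BAF170 (Smarcc2) form the scaffold on which the other subunits assemble. In the developing cortex these complexes act in radial glia, which divide, produce neurons and later turn to making astrocytes.

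The targeted genes were read first, as a check of the labels. Levels are given as CPM, the count of a gene per 1e+06 counts of its library after TMM scaling between libraries. Smarcc1 was at 247.3, 264.2, 269.3 and 248.4 CPM in controls 1 to 4. In the dcKO libraries Smarcc1 stood at 245.5 in replicate 2, 128.1 in replicate 3 and 135.4 in replicate 4. Smarcc2 was at 653.6, 703.5, 713.9 and 655.9 CPM in controls, and at 669.9, 399.5 and 398.1 in dcKO replicates 2, 3 and 4. The library labelled dcKO replicate 2 thus had no reduction in either targeted gene, whereas replicates 3 and 4 kept reduced levels of both. Without replicate 2 the log2 fold changes of Smarcc1 and Smarcc2 were -0.97 ± 0.06 SE and -0.77 ± 0.07. Replicate 2 was left out for its level of the targeted genes, so the fit without it is no test of them. With all 7 libraries the fold changes were -0.61 and -0.48 (adjusted p = 0.251 and 0.252 by edgeR). Because this library goes against its label, results are given from dcKO replicates 3 and 4 against the 4 controls, and the value of replicate 2 is set beside most genes whose single libraries are given.

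**Figure D1:**
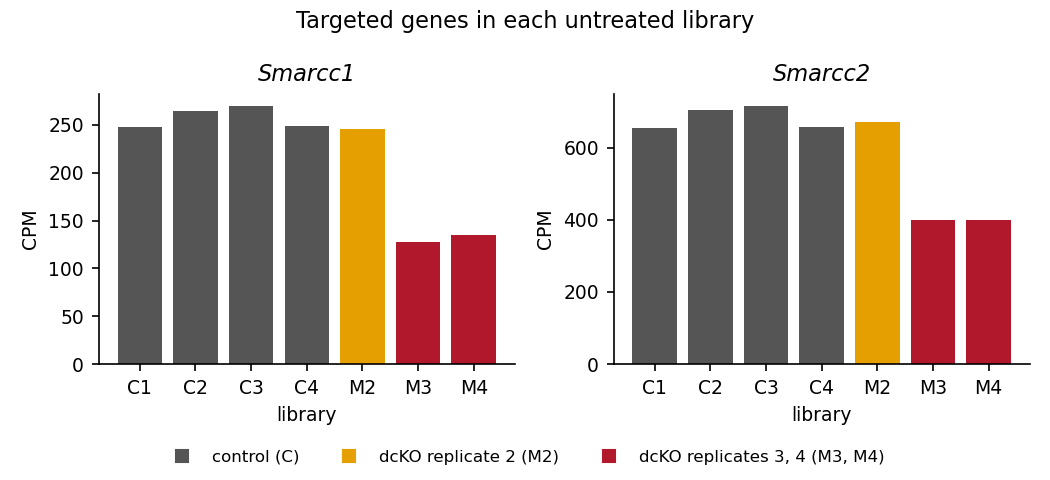
CPM (y axis) of Smarcc1 and Smarcc2 in each untreated library (x axis), with 1 bar per library. DcKO replicate 2 (M2) sits with the controls at 245.5 and 669.9 CPM, and replicates 3 and 4 sit below every control.

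Replicate 2 was also the shallowest library, with 11946658 counts against 22509306 to 28391046 in the other 6. Its expression profile was closest to control replicate 3 (Pearson r = 0.9948 of log2(CPM + 1) across 16024 genes, as a description) and further from dcKO replicates 3 (0.9855) and 4 (0.9882). Y-linked transcripts were present in 2 of 4 controls and 1 of 3 dcKO libraries, so both sexes were in both groups. Pallial markers were abundant in every library: the neuronal factor Neurod6 lay between 691 and 950 CPM in controls and at 1020, 299 and 378 CPM in dcKO replicates 2, 3 and 4, and the layer marker Tbr1 lay between 294 and 377 CPM in controls and at 381, 310 and 361. Markers of other cells moved with the groups in part. GABAergic and ventral telencephalic genes rose in 7 of 14 and fell in 0, with a summed level of 864 to 990 CPM in controls, 736 in replicate 2, and 1210 and 1100 in replicates 3 and 4. Diencephalic genes rose in 4 of 9 (Shox2, Lhx9, Gbx2, Tcf7l2), from 56.5 to 62.2 CPM in controls to 90.8 and 95.9 CPM, with 46.4 in replicate 2. No member of either list was at 0 in all libraries. Shox2 had no count in any control, and was at 1.76, 11.1 and 8.32 CPM in dcKO replicates 2, 3 and 4. The part of these cells in the results below was not tested.

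With replicate 2 left out, 1994 of 16024 genes passed edgeR's quasi-likelihood test at a Benjamini-Hochberg adjusted p under 0.05, that is 12.4 percent called, 892 of them higher in dcKO (5.57 percent) and 1102 lower (6.88 percent). The words rose and fell below refer to this fit of 6 libraries. With all 7 libraries only 1 of 15770 genes passed (0.00634 percent), against 2531 genes at an unadjusted p under 0.05, and DESeq2 called 529 genes in the same 7 libraries. Of those 529 genes, 493 (93.2 percent) were among the 1994, which is 24.7 percent of the longer list; both fits rest on the same controls. The median log2 fold change over all genes of the 6-library fit was -0.0004.

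**Figure D2:**
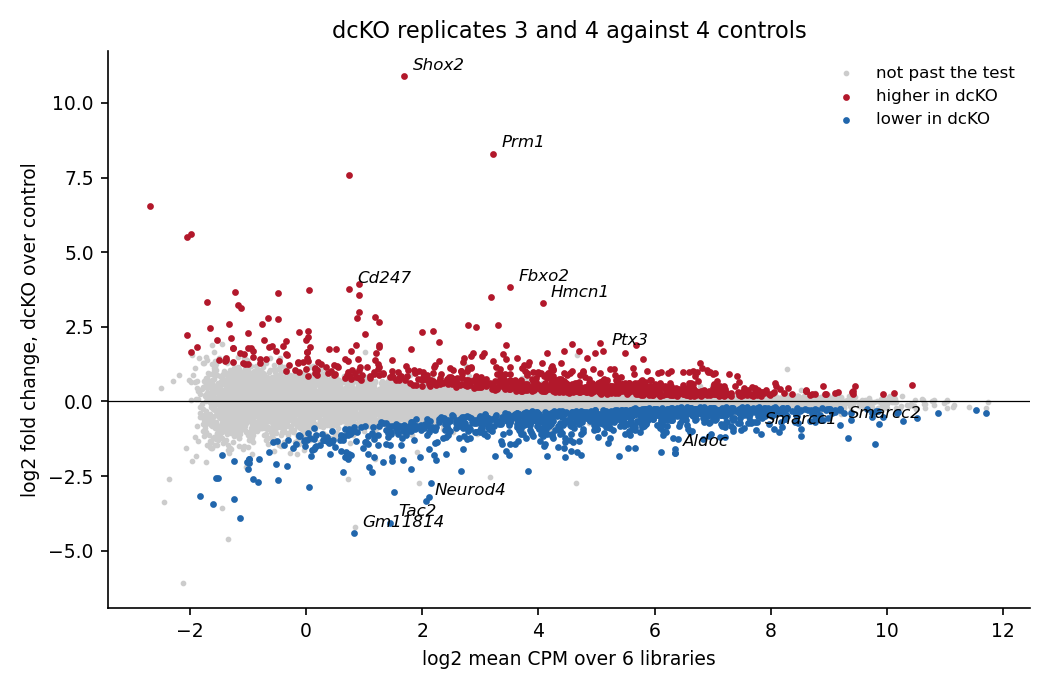
Log2 fold change of dcKO replicates 3 and 4 over the 4 controls (y axis) against log2 mean CPM over these 6 libraries (x axis), 1 point per gene. Red points (892) were higher and blue points (1102) lower at an adjusted p under 0.05; Shox2 and Prm1 lie highest, and Gm11814 and Tac2 lie lowest among the labelled genes.

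The single gene that edgeR called with every library included, after the filter on low counts, was Gm16565, a noncoding gene on chromosome 1 (165781075 to 165789367, GRCm38). It stood at 0.756, 0.798, 0.747 and 0.723 CPM in controls, 3.11 in dcKO replicate 2, and 5.30 and 5.41 in replicates 3 and 4. All 3 dcKO libraries lay above all 4 controls (log2 fold change 2.63, adjusted p = 0.00979 by edgeR in 7 libraries). Its exons overlap those of Cd247 on the same strand, so reads of this stretch may be shared. Cd247, the zeta chain of the T cell receptor complex, showed the same order of libraries: 0.222 to 0.362 CPM in controls, 1.18 in replicate 2, and 4.166 and 4.604 in replicates 3 and 4 (log2 fold change 3.75 ± 0.23 SE, adjusted p = 9.7e-06 by edgeR without replicate 2). Its exons also meet those of Pou2f1 on the opposite strand.

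Several of the genes that rose were at or near 0 in the controls. Prm1 encodes protamine 1, which packs DNA in sperm. It was between 0.0420 and 0.177 CPM in controls and at 29.2 and 26.2 CPM in dcKO replicates 3 and 4, which is 330.0-fold in the mean, with 2.60 CPM in replicate 2 (log2 fold change 8.30 ± 0.23, adjusted p = 5.51e-08 by edgeR). Shox2, a homeobox factor of limb, heart and thalamus, had no count in any control and 21, 292 and 206 counts in dcKO replicates 2, 3 and 4. Against a floor of 3 counts over the 4 controls together, its mean of 9.69 CPM in replicates 3 and 4 was at least 314-fold higher. In both genes dcKO replicates 3 and 4 lay far above every control.

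Others were expressed in controls and multiplied. Hmcn1, encoding the extracellular matrix protein hemicentin 1, was at 3.78 to 4.61 CPM in controls, 10.8 in replicate 2, and 43.9 and 39.8 in replicates 3 and 4 (9.79-fold). Fbxo2, a ubiquitin ligase subunit that binds glycoproteins, was at 1.78 to 2.48 CPM in controls, 4.79 in replicate 2, and 27.3 and 32.9 in replicates 3 and 4 (14.3-fold). Kirrel2, a cell adhesion protein of the nephrin family, was at 0.178 to 0.532 CPM in controls, 0.588 in replicate 2, and 6.33 and 3.59 in replicates 3 and 4 (15.1-fold). Cacng5, an auxiliary subunit of AMPA receptors, rose 3.87-fold from 15.3 to 18.4 CPM in controls to 70.5 and 61.1, with 24.7 in replicate 2. Thsd4, which takes part in microfibril assembly, rose 3.79-fold, and Ebf3, a transcription factor of Cajal-Retzius cells, rose 3.24-fold with replicate 2 at 10.9 CPM, below all controls (10.98 to 13.7). Mfge8, a secreted bridge between dying cells and phagocytes, rose 1.90-fold from a mean of 98.9 ± 3.8 CPM (SD, n = 4). 2810459M11Rik (2.73-fold) and F730043M19Rik (3.11-fold) complete the genes with the smallest p in this direction, together with Ptx3 and Tifa, described with the innate sensing genes. F730043M19Rik overlaps Gm16267 on the opposite strand, and without strand the reads of the shared exons cannot be told apart.

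The genes outside the lists of the study that fell with the smallest p were led by Aldoc and Lmo7. Aldoc, the brain isoform of the glycolytic enzyme aldolase, was at 102.2, 108.4, 110.6 and 103.5 CPM in controls and at 33.3 and 31.3 CPM in dcKO replicates 3 and 4 (log2 fold change -1.72 ± 0.07, adjusted p = 4.85e-07 by edgeR), with 118.0 CPM in replicate 2. Kcnj10, the Kir4.1 potassium channel, was at 31.8 to 33.7 CPM in controls, 31.8 in replicate 2, and 10.04 and 10.46 in replicates 3 and 4. Slco1c1, a thyroid hormone transporter, was at 60.7 to 68.4 CPM in controls, 70.4 in replicate 2, and 23.3 and 20.9 in replicates 3 and 4. The 3 genes fell to fractions of 0.304, 0.312 and 0.339 of control, and replicate 2 lay at or near the control range in each.

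Lmo7, a protein of cell junctions, was at 102.4 to 111.6 CPM in controls, 121.1 in replicate 2, and 33.6 and 30.2 in dcKO replicates 3 and 4, a fraction of 0.300. Nrp1, a receptor for semaphorins and VEGF, fell to 0.497 of control from 314.3 to 355.9 CPM in controls, and Sema3c, a secreted semaphorin, fell to 0.444 from 140.1 to 165.1 CPM. Replicate 2 lay above all controls in both, at 384.5 CPM for Nrp1 and 183.3 CPM for Sema3c. Clstn2, a synaptic cadherin-like protein, fell to 0.443, Cd9, a tetraspanin, to 0.396, S100a10, a membrane-linked S100 protein, to 0.286, and Paqr8, a progestin-binding membrane protein, to 0.338. Fosl2, an AP-1 transcription factor, fell to 0.331 of control, from 96.0 to 113.2 CPM to 32.6 and 36.9, with 112.7 CPM in replicate 2.

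The largest decreases were in genes of low level. Tac2, which encodes the neuropeptide neurokinin B, was at 3.53 to 4.25 CPM in controls, 4.37 in replicate 2, and 0.265 and 0.202 in replicates 3 and 4, a fraction of 0.0586. Neurod4, a proneural factor, was at 4.62 to 7.93 CPM in controls, 7.64 in replicate 2, and 0.606 and 0.565 in replicates 3 and 4. Gm11814 was at 2.12 to 2.93 CPM in controls, 3.02 in replicate 2, and 0.0379 and 0.202 in replicates 3 and 4. Msx3, a homeobox gene, had 59 counts over the controls and 3 over dcKO replicates 3 and 4, a ratio of 0.0981 (95% exact interval 0.0197 to 0.301). Fam216b had 62 and 2 counts (0.0622, interval 0.00737 to 0.234), and without dcKO replicate 3 its adjusted p was 0.152 by edgeR. These counting intervals cover counting error only.

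The library labelled dcKO replicate 2 took different positions among the rising and the falling genes. Among the 12 rising genes with the smallest p, it lay between the highest control and the lower of replicates 3 and 4 in 11, and below all controls in 1 (Ebf3). Its ratio to the control mean had a median of 1.71 and ran from 0.876 to 31. Among the 12 falling genes it lay above all controls in 6, within them in 5 and below them in 1 (Paqr8), at a median ratio of 1.08 (0.869 to 1.21). Over all 16024 genes tested, replicate 2 lay above all controls in 27 percent and below all in 25.4 percent. The genes were chosen with the same controls in the fit, so these counts describe the libraries and are no test. 

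**Figure D3:**
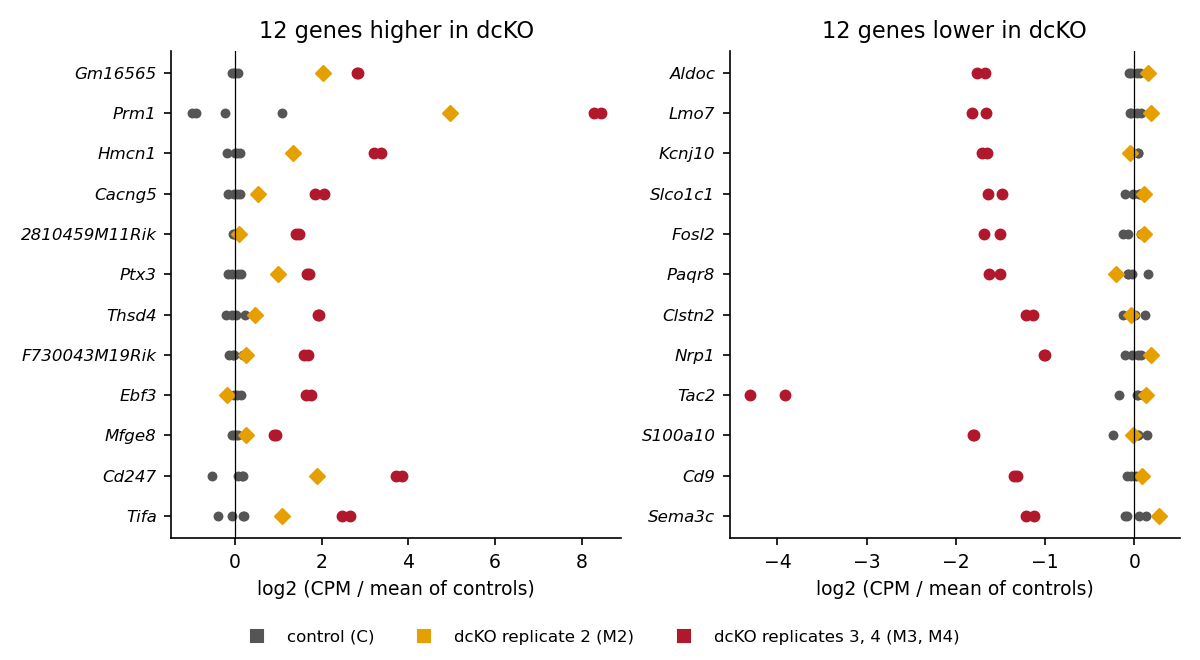
Log2 ratio of each library's CPM to the mean of the 4 controls (x axis) for the 12 rising genes (left) and the 12 falling genes (right) with the smallest p. Replicate 2 (orange diamonds) lies between controls (grey) and replicates 3 and 4 (red) for 11 of 12 rising genes, and at or near the controls for the falling genes.

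Pathways were described through 25 measured gene lists, in each of which the count of members called can be set against 5.57 percent called higher and 6.88 percent called lower over all genes. With all 7 libraries the 1 gene that edgeR called was in none of the lists. The list medians that moved most with replicate 2 included were those of the AP-2 and neural crest list (0.28 to -0.04), the retinoic acid pathway (0.00 to -0.20) and motile cilia (-0.07 to -0.24). Each median covers the members tested in its own fit. The rising genes Tfap2a and Twist1 were below the filter with all 7 libraries, so the shift of the AP-2 list is in part a change of members. No list has a test, since the lists were chosen with earlier results of these data known.

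**Figure D4:**
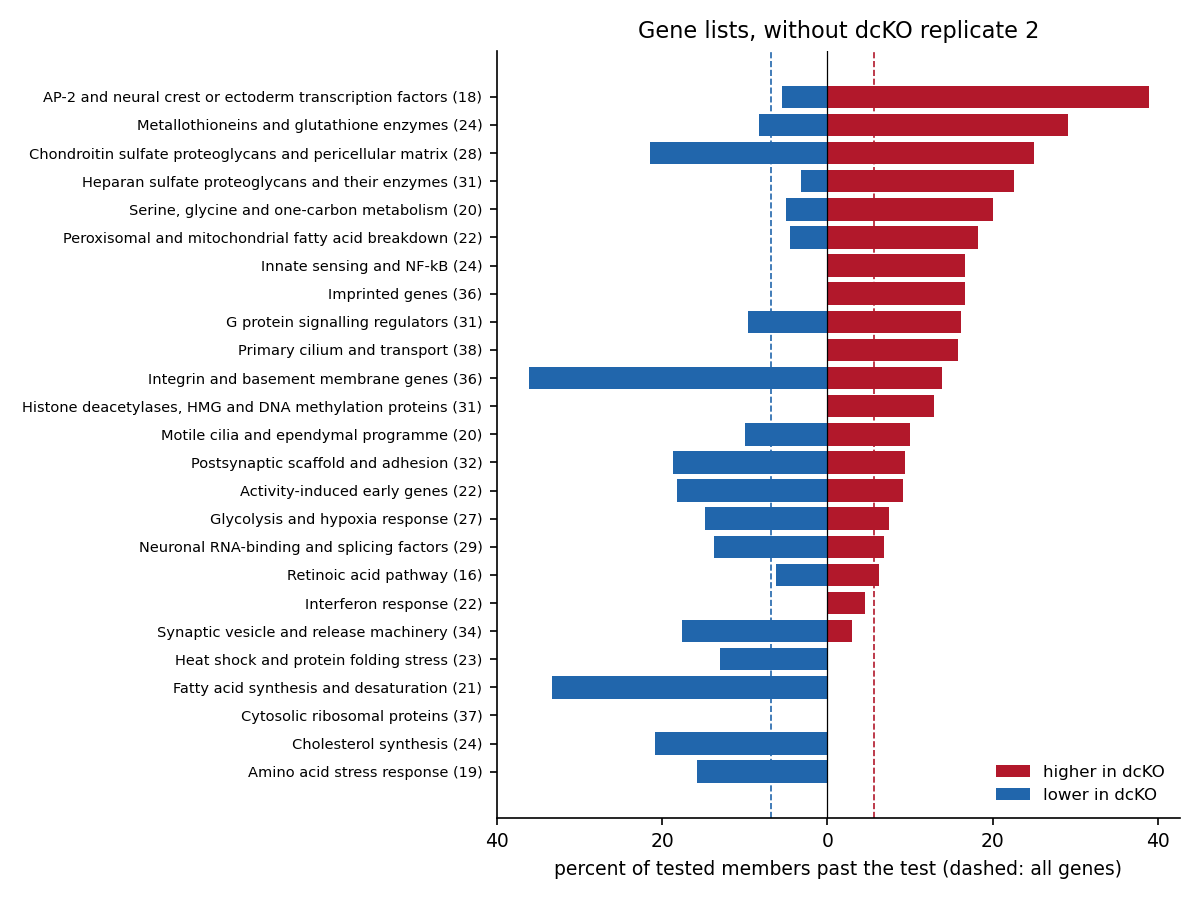
Percent of tested members (x axis; number tested in parentheses) that rose (red, right) or fell (blue, left) in the fit without dcKO replicate 2, for each gene list. Dashed lines give 5.57 and 6.88 percent over all genes. Transcription factors of the AP-2 and neural crest list have the longest red bar (7 of 18), and integrin and basement membrane genes the longest blue bar (13 of 36). Tfap2a and Twist1 of that red bar passed the filter on low counts only through dcKO replicates 3 and 4.

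Innate sensing genes rose in 4 of 24 and fell in 0, with a median log2 fold change of 0.23. Alpk1 is a kinase that senses a bacterial sugar of the lipopolysaccharide pathway, and Tifa is the adaptor it phosphorylates to reach NF-kB. Alpk1 was at 4.96, 5.27, 6.90 and 5.78 CPM in controls, 8.31 in dcKO replicate 2, and 21.3 and 21.1 in replicates 3 and 4. Tifa was at 2.48, 2.97, 3.02 and 1.99 CPM in controls, 5.54 in replicate 2, and 14.5 and 16.4 in replicates 3 and 4. In both genes all 3 dcKO libraries lay above all controls, with log2 fold changes of 1.88 ± 0.13 and 2.56 ± 0.16 (adjusted p = 1.62e-05 and 1.06e-05 by edgeR). The genes are neighbours on chromosome 3, 9278 bases apart and read away from each other.

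Ptx3, a secreted pentraxin that recognises microbes and matrix, was at 18.0 to 21.9 CPM in controls, 39.5 in replicate 2, and 63.3 and 65.1 in replicates 3 and 4. Ifih1, the cytosolic RNA sensor MDA5, was at 1.03 to 1.43 CPM in controls, 2.27 in replicate 2, and 5.11 and 4.20 in replicates 3 and 4. The 22 interferon-induced genes tested had a median log2 fold change of 0.08, and 0 fell. Members not called included Ifitm3 (log2 fold change 0.62, adjusted p = 0.09 by edgeR), Adar (0.14, 0.106) and Stat2 (-0.17, 0.127). Microglia markers rose in 3 of 12 (Fcer1g, Tyrobp, C1qb) and fell in 0, and their sum was 75.6 to 87.2 CPM in controls, 66.0 in replicate 2, and 96.5 and 84.6 in replicates 3 and 4. Whether they had a part in the sensing genes was not tested.

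**Figure D5:**
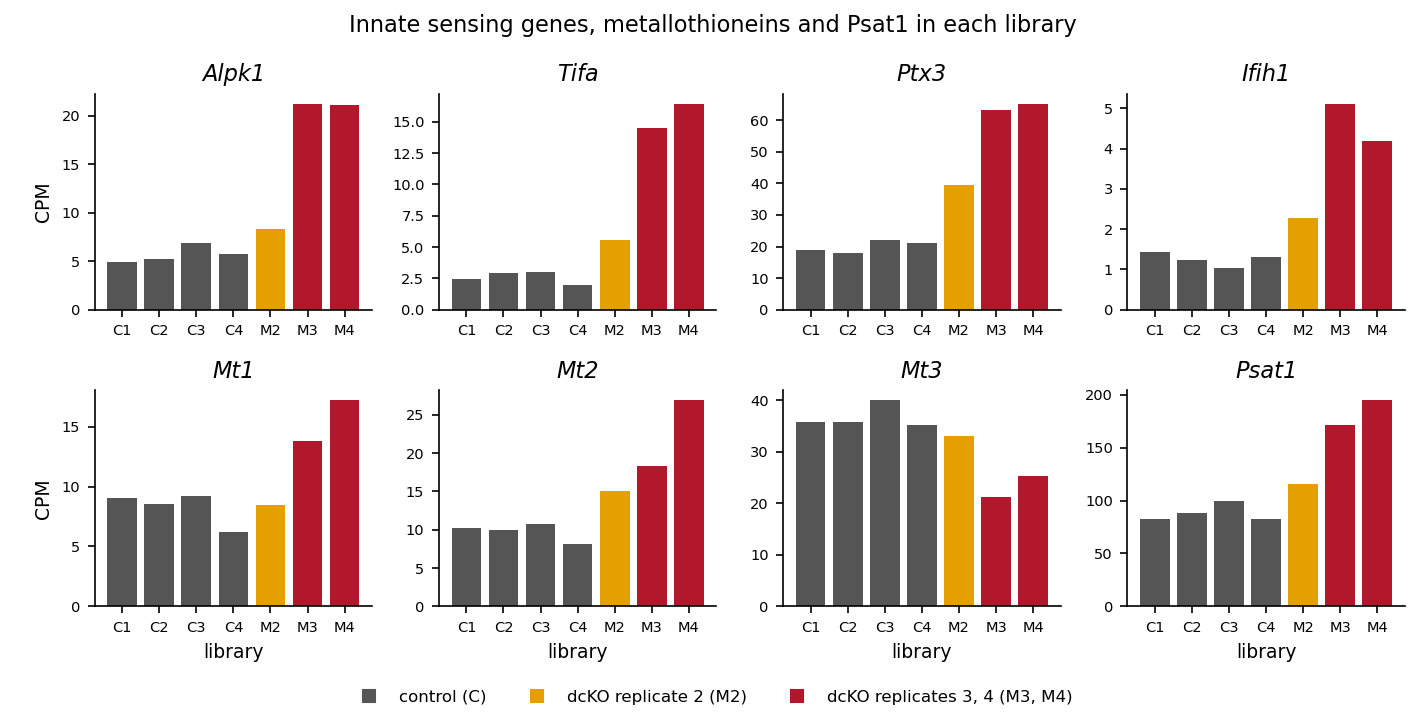
CPM (y axis, from 0, own scale in each panel) of 4 innate sensing genes, 3 metallothioneins and Psat1 in each library (x axis). Alpk1, Tifa, Ptx3 and Ifih1 are highest in dcKO replicates 3 and 4 with replicate 2 between; Mt1 and Mt2 are highest in replicates 3 and 4, and Mt3 is lowest there.

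Metallothioneins and glutathione enzymes changed in 9 of 24 (7 rose, 2 fell; median 0.06), and the metallothioneins split by member. These small cysteine-rich proteins bind zinc and copper; Mt1 and Mt2 are induced by metals, whereas Mt3 is the brain form and responds little. The 3 promoters are shown because these neighbouring genes on chromosome 8 moved in opposite directions; they are RefSeq promoters (GRCm38.p6, plus strand, 250 bases before to 50 after the start) at chr8:94178839-94179138 for Mt1, chr8:94172368-94172667 for Mt2 and chr8:94152357-94152656 for Mt3. Capitals mark matches to the core of the metal response element, searched as TGCACNC or TGCGCNC on both strands.
Mt1: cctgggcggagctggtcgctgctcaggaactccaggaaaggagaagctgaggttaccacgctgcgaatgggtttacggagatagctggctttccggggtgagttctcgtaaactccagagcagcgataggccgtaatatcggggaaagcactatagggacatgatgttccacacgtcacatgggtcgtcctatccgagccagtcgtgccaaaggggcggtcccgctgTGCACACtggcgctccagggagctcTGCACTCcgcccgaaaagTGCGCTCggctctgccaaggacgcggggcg
Mt2: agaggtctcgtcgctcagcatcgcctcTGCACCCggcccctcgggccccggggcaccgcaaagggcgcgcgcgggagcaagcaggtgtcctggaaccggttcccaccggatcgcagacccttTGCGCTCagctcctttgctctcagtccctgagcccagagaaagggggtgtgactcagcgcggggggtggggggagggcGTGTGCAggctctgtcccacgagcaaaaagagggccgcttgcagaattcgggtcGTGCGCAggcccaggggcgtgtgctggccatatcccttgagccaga
Mt3: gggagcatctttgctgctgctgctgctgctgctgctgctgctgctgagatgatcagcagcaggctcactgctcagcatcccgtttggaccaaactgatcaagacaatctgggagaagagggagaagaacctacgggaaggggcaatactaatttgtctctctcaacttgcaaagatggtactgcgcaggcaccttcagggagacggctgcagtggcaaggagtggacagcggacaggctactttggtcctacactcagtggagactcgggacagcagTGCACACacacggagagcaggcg
The Mt2 window held 4 matches, Mt1 3 and Mt3 1. Of 32851 promoters of this length, 25.7 percent held at least 1 match, 1.97 percent at least 3 and 0.517 percent at least 4. A match describes the sequence and shows neither a binding site nor a cause.

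Mt1 was at 9.08, 8.55, 9.25 and 6.19 CPM in controls, 8.48 in dcKO replicate 2, and 13.8 and 17.2 in replicates 3 and 4 (log2 fold change 0.90 ± 0.16, adjusted p = 0.00551 by edgeR). Without dcKO replicate 4 the adjusted p of Mt1 was 0.086. Mt2 was at 8.18 to 10.7 CPM in controls, 15.03 in replicate 2, and 18.4 and 26.9 in replicates 3 and 4. Mt3 was at 35.3 to 39.99 CPM in controls, 33.1 in replicate 2, and 21.3 and 25.4 in replicates 3 and 4 (log2 fold change -0.66 ± 0.10). Gsta4, a glutathione transferase that clears lipid aldehydes, rose 5.14-fold from 1.18 to 2.35 CPM to 9.92 and 9.81. Hmox1, Gpx1, Gss and Mgst1 also rose, and Gpx7 fell.

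Of 20 genes of serine, glycine and one-carbon metabolism, 4 rose (Psat1, Psph, Shmt2, Mtr) and 1 fell (Gldc, of the glycine cleavage system), and the median of all 20 was -0.09, below 0. Psat1, the transaminase of serine synthesis, was at 82.2 to 99.6 CPM in controls, 115.8 in replicate 2, and 171.3 and 194.7 in replicates 3 and 4 (2.08-fold). Psph, which completes serine synthesis, rose 1.32-fold, Shmt2, which moves a carbon from serine in mitochondria, 1.28-fold, and Mtr, methionine synthase, 1.26-fold. The last 3 lost the call without dcKO replicate 3 (adjusted p = 0.188, 0.161 and 0.131 by edgeR) or without replicate 4 (0.133, 0.23 and 0.33), and without control replicate 1 (0.0519, 0.0734 and 0.0984); Mtr lost it also without control replicate 4 (0.0707). Genes of the amino acid stress response, which often move with serine synthesis through ATF4, rose in 0 of 19 and fell in 3. Stc2, a secreted glycoprotein, fell to 0.387 of control, and Cebpg and Atf4 itself fell to 0.782 and 0.827. Cebpg was not called without dcKO replicate 3 (0.158), nor Atf4 without replicate 3 (0.193), replicate 4 (0.188) or control replicate 1 (0.0533).

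Lipid synthesis genes that were called were all lower. Of 24 cholesterol synthesis genes 5 fell and 0 rose (median -0.20), and of 21 genes of fatty acid synthesis and desaturation 7 fell and 0 rose (median -0.19). Scd1, the desaturase that makes oleate, was at 44.1 to 63.8 CPM in controls, 34.0 in dcKO replicate 2, and 29.4 and 28.8 in replicates 3 and 4, a fraction of 0.562. Fads1, a desaturase of polyunsaturated fatty acids, was at 237.4 to 240.8 CPM in controls, 232.3 in replicate 2, and 188.4 and 182.9 in replicates 3 and 4. Aacs, which feeds ketone bodies into lipid synthesis, fell to 0.749 of control with replicate 2 at 92.2 CPM, below all controls. Stard4, a sterol carrier, fell to 0.654, Sqle, squalene epoxidase, to 0.784, and Msmo1 and Insig1 both to 0.761. Msmo1, Sqle, Insig1, Aacs and Elovl7 were not called without dcKO replicate 4 (adjusted p between 0.0524 and 0.225 by edgeR), nor Sqle, Insig1 and Elovl7 without replicate 3 (0.108, 0.0924 and 0.11), nor Elovl7 without control replicate 1 (0.054).

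Of 22 genes of fatty acid breakdown, 4 rose (Bdh2, Abcd2, Cpt1c, Hsd17b4) and 1 fell (Acadl), at a median of -0.03. Bdh2, a cytosolic dehydrogenase, was at 0.497 to 0.754 CPM in controls, 1.01 in replicate 2, and 4.55 and 4.04 in replicates 3 and 4 (7.06-fold). Abcd2, a peroxisomal transporter of very long chain fatty acids, rose 2.13-fold, from 24.7 to 33.7 CPM in controls to 55.5 and 61.3, with 37.8 in replicate 2. Cpt1c, the neuronal carnitine palmitoyltransferase, rose 1.47-fold and Hsd17b4, of peroxisomal beta-oxidation, 1.37-fold. Glycolysis and hypoxia genes rose in 2 of 27 and fell in 4: beside Aldoc, Gpi1 fell to 0.748, Pfkm rose 1.32-fold and Ddit4, an inhibitor of mTORC1, rose 1.98-fold. Gpi1 was not called without dcKO replicate 3 (0.176) or 4 (0.113).

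Integrin and basement membrane genes changed in 18 of 36, with 13 lower and 5 higher and a median of -0.28. Lama5, the laminin alpha 5 chain, was at 12.4 to 16.8 CPM in controls, 14.4 in replicate 2, and 3.60 and 4.81 in replicates 3 and 4, a fraction of 0.286. The laminin beta chains went opposite ways: Lamb1 fell to 0.613 of control and Lamb2 rose 2.11-fold, from 19.7 to 25.1 CPM to 47.3 and 47.7, with replicate 2 at 25.02, inside the control range. Itgb5, integrin beta 5, rose 2.01-fold, with replicate 2 at 15.03 CPM, below all controls (16.01 to 20.3). Fras1, Frem2, Fn1, Lama2 and the integrin chains Itga1, Itga3, Itga4, Itga9 and Itgb4 were among the members that fell. Meningeal fibroblasts, which also make basement membrane, had 12 of 12 marker genes below 0 in log2 fold change, 1 of them called (Ogn), and a summed level of 93.4 to 161 CPM in controls, 104 in replicate 2, and 98.6 and 101 in replicates 3 and 4. Their collagens varied within the controls, with Col3a1 at 3.99, 27.6, 5.48 and 25.03 CPM. Their part in the basement membrane genes was not tested.

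Chondroitin sulfate proteoglycans and pericellular matrix genes changed in 13 of 28 (7 rose, 6 fell; median -0.09). After Hmcn1, Thbs3, a thrombospondin, rose from 85.9 to 95.7 CPM in controls to 198.1 and 162.4, and Adamts1, a protease of proteoglycans, rose 1.86-fold, and Acan, Hapln4, Thbs1 and Adamts4 rose too. Tnc, tenascin C of the radial glial niche, fell from 379.5 to 418.3 CPM in controls to 250.3 and 233.8, with 448.7 in replicate 2, and Bcan, Sparc, Sparcl1, Fbln2 and Has3 fell too. Of 31 heparan sulfate genes 7 rose and 1 fell (median 0.00). The membrane proteoglycan Sdc4 was at 1.60 to 2.35 CPM in controls, 3.36 in replicate 2, and 6.36 and 6.83 in replicates 3 and 4 (3.34-fold), and the glypican Gpc4 rose 1.85-fold with replicate 2 (51.5 CPM) above all controls (28.3 to 37.2). Extl1 (1.81-fold) and Sulf2 (1.22-fold) also rose; Extl1 was not called without dcKO replicate 3 (0.159), and Sulf2 not without replicate 3 (0.125) or 4 (0.176).

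Transcription factors of the AP-2 and neural crest list rose in 7 of 18 tested members (25 in the list) and fell in 1 (Msx3), at a median of 0.28. Of the risers, Tfap2a and Twist1 passed the filter on low counts only without replicate 2, through their levels in dcKO replicates 3 and 4. Members low in every library were left out, so the filter itself shapes this count. Tfap2c encodes AP-2 gamma, which the study used as a marker of neural stem cells. It was at 12.7, 14.4, 19.8 and 13.1 CPM in controls, 26.1 in dcKO replicate 2, and 45.8 and 50.6 in replicates 3 and 4 (3.22-fold). Tfap2a rose 9.23-fold and Twist1, a mesenchymal factor, 6.13-fold, from 0.0443 to 0.168 and 0.210 to 0.226 CPM in controls, with replicate 2 at 0.168 and 0 CPM. Zic2, a zinc finger factor of midline progenitors, rose 1.61-fold. Among chromatin proteins (deacetylases, HMG proteins and DNA methylation factors), 4 of 31 rose and 0 fell. Hmgn5, a nucleosome-binding protein, rose 2.03-fold with replicate 2 (30.0 CPM) above all controls (17.4 to 22.1), and Hdac9, a class II deacetylase, rose 1.67-fold. Dnmt3a, a DNA methyltransferase, rose 1.25-fold while replicate 2 (161.2 CPM) lay below all controls (206.4 to 232.8), and Hdac11 rose 1.24-fold. Dnmt3a was not called without dcKO replicate 3 (0.12), nor Hdac11 without dcKO replicate 3 (0.355), 4 (0.0724) or control replicate 1 (0.0761) or 2 (0.0681).

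Imprinted genes, expressed from 1 parental allele and often tied to growth, rose in 6 of 36 and fell in 0 (median 0.12, and 0.04 with all 7 libraries). Plagl1, a zinc finger regulator of other imprinted genes, was at 85.6 to 108.8 CPM in controls, 134.7 in replicate 2, and 194.8 and 193.8 in replicates 3 and 4 (1.94-fold). Magel2 rose 3.09-fold and Peg10 2.41-fold, and Nnat, neuronatin, 1.46-fold. For Magel2 replicate 2 (10.5 CPM) lay below all controls (13.7 to 21.0), and for Nnat too (1007 against 1162 to 1262). Ndn, the neighbour of Magel2, and Grb10 completed the list. Cytosolic ribosomal protein genes rose in 0 and fell in 0 of 37 at a median of 0.00 in edgeR (the smallest p was that of Rps24, adjusted p = 0.0797).

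Synaptic vesicle genes fell in 6 of 34 and rose in 1, and postsynaptic genes fell in 6 of 32 and rose in 3. Cplx2, a complexin that clamps vesicle release, fell from 444.1 to 469.5 CPM in controls to 330.8 and 344.0 (0.739), with 415.7 in replicate 2. Slc17a7, the vesicular glutamate transporter VGLUT1, fell to 0.732, with replicate 2 at 62.1 CPM, below all controls (70.5 to 82.8). Camk2b, a calcium-dependent kinase, fell to 0.679 (replicate 2 at 541.2 CPM, within the control range of 517.5 to 589.1). Baiap2, an actin scaffold of spines, fell to 0.612, with replicate 2 at 60.8 CPM, below all controls (62.5 to 70.1). The synaptic vesicle genes summed to 6000 to 6850 CPM in controls, 5740 in replicate 2, and 6220 and 5980 in replicates 3 and 4. The splicing factors Srrm4 and Rbfox3, both markers of maturing neurons, fell to 0.715 and 0.693 of control. Replicate 2 was at 258.8 CPM for Srrm4, within the controls (255.9 to 282.5), and at 85.9 for Rbfox3, below them (93.7 to 111.5). Nova1 rose 2.05-fold, from 61.1 to 82.3 CPM to 165.1 and 140.1 with replicate 2 at 60.6. In the list of neuronal RNA-binding factors 2 of 29 rose and 4 fell. Slc17a7, Syt2, Sv2b, Lrrtm1 and Rbfox1 were not called without dcKO replicate 3 (adjusted p between 0.0587 and 0.189 by edgeR), and Sv2b, Lrrtm1 and Rbfox1 not without replicate 4 (0.11, 0.0905 and 0.114). Pallial neuron markers fell in 6 of 12 and rose in 0, with a sum of 9420 to 10500 CPM in controls, 9950 in replicate 2, and 8140 and 8350 in replicates 3 and 4; whether fewer such neurons had a part was not tested.

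Activity-induced early genes fell in 4 of 22 and rose in 2. Besides Fosl2, the nuclear receptor Nr4a3 fell from 133.9 to 175.1 CPM in controls to 69.8 and 75.5, with 176.5 in replicate 2, and Dusp6, a phosphatase of ERK, fell to 0.688. Egr2 rose 3.55-fold from under 1 CPM in each control. Egr2 and Dusp6 were not called without dcKO replicate 3 (adjusted p = 0.119 and 0.188 by edgeR), nor Dusp6 without replicate 4 (0.0563). Regulators of G protein signalling rose in 5 of 31 and fell in 3. Rgs9bp, which anchors RGS9, was at 5.23 to 6.82 CPM in controls, 8.73 in replicate 2, and 18.5 and 19.4 in replicates 3 and 4 (3.01-fold), and Rgs6 fell to 0.510 of control. Rgs8 fell to 0.702, with replicate 2 at 32.3 CPM beside replicates 3 and 4 at 32.6 and 34.8 and controls at 43.4 to 50.5, so all 3 dcKO libraries lay below all controls; without replicate 3 its adjusted p was 0.0569. Rgs20 rose 1.46-fold and was not called without replicate 4 (0.105).

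Primary cilium genes rose in 6 of 38 and fell in 0, and 30 of the 38 had a log2 fold change above 0 (median 0.14). The steps were small: Bbs9, of the BBSome, rose 1.49-fold, Cc2d2a, of the transition zone, 1.48-fold, Fuz 1.38-fold and Ift80 1.28-fold. Fuz and Ift80 were not called without dcKO replicate 3 (0.0772 and 0.117) or 4 (0.0787 and 0.144). Motile cilium genes rose in 2 of 20 and fell in 2, with Tekt1, a tektin of axonemes, 2.76-fold higher (10.5 and 12.4 CPM against 3.49 to 4.62) and Hydin at 0.497 of control with replicate 2 (1.93 CPM) also below all controls (3.01 to 3.49). Hydin, Ccdc40 and Dnah9 were not called without dcKO replicate 3 (0.065, 0.0652 and 0.0814) or 4 (0.0719, 0.0982 and 0.124). Of 16 retinoic acid pathway genes 1 rose (Rara, a receptor, 1.41-fold) and 1 fell (Cyp26b1, which degrades retinoic acid, to 0.682, with replicate 2 at 22.7 CPM against 29.2 to 41.2 in controls). Rara was not called without dcKO replicate 3 (0.186), nor Cyp26b1 without replicate 3 (0.169) or 4 (0.107). Genes of heat shock and protein folding stress fell in 3 of 23 and rose in 0. Xbp1, a factor of the unfolded protein response, fell to 0.717, and Sdf2l1 and Manf to 0.589 and 0.846. Without dcKO replicate 3 Sdf2l1 and Manf had adjusted p of 0.282 and 0.294, and without replicate 4 of 0.0953 and 0.268. Sdf2l1 also lost the call without control replicate 1 (0.0695), and Manf without control replicate 2 (0.0949), 3 (0.0737) or 4 (0.0637).

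Neighbours on the chromosome were read next. Of 887 rising genes with a position, 198 (22.3 percent) had a rising gene as an adjacent tested gene, against 10.6 percent of all 15845 tested genes, and 99 (11.2 percent) had an adjacent falling gene, against 13.1 percent of all. Of 1096 falling genes, 262 (23.9 percent) had an adjacent falling gene, against 13.1 percent of all. With only pairs whose gene bodies do not overlap, the shares were 177 of 887 rising genes, against 9.57 percent of all, and 222 of 1096 falling genes (20.3 percent), against 11.8 percent of all; these are descriptions with no test. Runs of 3 or more neighbours numbered 19 for rising and 24 for falling genes.

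The longest run held 5 rising genes on chromosome 15 (57869502 to 58135082, GRCm38): Derl1, Tbc1d31, Gm29394, Zhx1 and Atad2. Zhx1, a zinc finger and homeobox repressor, led it at 87.0 to 97.6 CPM in controls, 102.8 in dcKO replicate 2, and 195.7 and 176.4 in replicates 3 and 4. The gene bodies of Gm29394 and Zhx1 overlap on the same strand, so the single values of these genes are uncertain. Alpk1 and Tifa formed a run of 4 on chromosome 3 (127670310 to 127896324) with Ap1ar (log2 fold change 0.38) and Fam241a (0.62). Ptx3, Shox2 and Rsrc1 formed a run on the same chromosome (66219910 to 67358396), where Ptx3 and Shox2 lie 745922 bases apart. Rsrc1, a splicing factor whose exons overlap Shox2 on the opposite strand, was at 43.7 to 52.5 CPM in controls, 53.7 in replicate 2, and 68.5 and 65.6 in replicates 3 and 4. Creg1 stood with Gm16565 and Cd247 on chromosome 1. Among falling runs, Ifi203-ps, Mndal and Ifi203, of the interferon-inducible p200 family on chromosome 1 (173776529 to 173942672), fell together. Ifi203 was at 5.56 to 7.29 CPM in controls, 7.97 in replicate 2, and 1.02 and 0.85 in replicates 3 and 4, and Mndal was at 4.16 to 5.27 CPM in controls, 6.88 in replicate 2, and 0.72 and 1.29. These genes are of 1 family, and the gene bodies of Mndal and Ifi203 overlap on the same strand, so their single values are uncertain. Around the floxed loci, 19 of 212 tested genes within 10 Mb of Smarcc1 on chromosome 9 were called (8.96 percent), and 21 of 113 within 10 Mb of Smarcc2 on chromosome 10 (18.6 percent), beside 12.4 percent of all genes.

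Exons of several other named genes overlap a gene on the opposite strand (Smarcc1, Hmcn1, Psph, Shmt2, Gpi1, Pfkm, Sulf2, Thbs3, Tnc, Rgs20, Sv2b, Fuz, Hydin, Dnah9, Tfap2a, Dnmt3a, Hdac11 and Manf among them), and since the libraries do not mark strand, reads of those stretches cannot be assigned to 1 gene.

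The series also holds 8 E17.5 cortex libraries of embryos given vehicle, 4 wild type (WT) and 4 dcKO, all C57BL/6J. They are not an independent repeat: of the 7 untreated libraries, 5 resembled the same-numbered vehicle library of the matching genotype most (correlation of deviations over 12479 genes between 0.64 and 0.88 for these 5, as a description), 7 of 7 matched it in Y-linked transcripts, and whether they came from the same embryos is not given in the sources used here. The vehicle library dcKO 1 has no untreated counterpart of its number. Its Smarcc1 was 135 CPM against 243 to 295 in WT vehicle, and it held both Xist (667 CPM) and Y-linked Ddx3y (18.9 CPM). In this library 12 of the 12 rising genes with the smallest p lay above all 4 WT vehicle libraries and 12 of the 12 falling genes below them. The share of all genes at which it lay outside the WT vehicle libraries was not counted. The genes were also chosen with untreated libraries that resemble the vehicle libraries, so these counts are a description and no test. In vehicle dcKO 1 Prm1 was at 28.6 CPM against 0.0768 to 0.327 in WT vehicle, Tifa at 14.6 against 2.02 to 2.54, and Aldoc at 38.1 against 99.7 to 131.7. Across the 8 vehicle libraries edgeR called 0 of 16017 genes, with 1787 at an unadjusted p under 0.05 and 329 by DESeq2; without the vehicle library dcKO 2, whose Smarcc1 was 242 CPM, it called 914.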

How the data were processed

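Total RNA was extracted from E17.5 pallium and made into libraries without strand marking (TruSeq RNA v2). The methods name alignment with STAR to mm10 and counting with featureCounts, and the authors deposited 1 table of raw gene counts per library (unit: counts). The annotation behind the counts is not given in the sources used here. The untreated tables hold 38355 gene IDs, of which 36602 matched a symbol, and their 5 closing summary rows, all 0, were left out. Such rows are of the kind written by another counting program, htseq-count, and the vehicle tables had none. Which program counted the untreated libraries is therefore uncertain. The 13 mitochondrial genes of a further list matched no ID and were not analysed here. Total counts ran from 11946658 to 28391046 per library, and genes of few counts are correspondingly imprecise.

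Counts were tested with edgeR 4.0.16 (R 4.3.3; TMM, filterByExpr, robust quasi-likelihood fit, Benjamini-Hochberg adjustment over all genes tested), in all 7 libraries and without dcKO replicate 2, and for the vehicle libraries. SE is the log2 fold change divided by the square root of F. CPM per library use TMM factors of the 7 libraries. P-values measure the spread between libraries of a group. In the fit without dcKO replicate 2, the dcKO group is the 2 libraries kept after replicate 2 was left out for its Smarcc1 level. The fits were tested on simulated counts. Members and lists were chosen with earlier results of these data known. Named genes were Smarcc1, Smarcc2, genes called in all 7 libraries, the 12 genes per direction with the smallest p outside the study's lists (called without replicate 2, mean count of at least 10, no overlap between controls and dcKO replicates 3 and 4), the 5 per direction with the largest fold change, and up to 4 members per list. Other genes are named for their place in a list or run and were chosen after their values were seen. The vehicle comparison was planned as separate libraries; the likeness of same-numbered libraries was seen afterwards. Positions are from GENCODE M21 (GRCm38). Results that need items withheld for evaluation are not reported here.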

Additional observations from a re-analysis of the deposited data

Results flagged for a closer look

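Among 140 sets of 4 control values examined (named genes, summed cell type markers and total counts), 4 had 1 control library far from the other 3 (gap to the nearest divided by the range above the critical value for 4 samples); chance alone gives about 1 in 20. Mt3 was at 39.99 CPM in control replicate 3 against 35.3 to 35.8 in the others (0.883), Ccdc40 was at 19.4 CPM in the same library against 15.4 to 15.96 (0.863), and Rbfox1 was at 214.0 CPM in control replicate 2 against 252.9 to 255.4 (0.94). The choroid plexus markers summed to 163 CPM in control replicate 4 and to as little as 22.3 in another control (0.867), with Ttr at 119.6 CPM in that library against 3.56 to 12.9 in the others. No choroid plexus marker was called (0 of 11 in edgeR), and Ttr was 3.19, 6.17 and 4.32 CPM in dcKO replicates 2, 3 and 4.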

How the results depend on the processing

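With all 7 libraries, edgeR called 1 gene, and 154 with no filter on low counts, 529 with DESeq2, 530 with DESeq2 and a prior on fold changes, and between 0 and 1994 with a library left out: 6 without control replicate 3, 1994 without dcKO replicate 2 and 0 without each of the other 5. Without dcKO replicate 2, the 1994 calls became 1992 with DESeq2 size factors, 2237 with no filter and 2160 with DESeq2 (1891 shared, 94.8 percent of the 1994), and between 689 and 2613 with another library left out, the lowest being 689 without dcKO replicate 3 and 733 without dcKO replicate 4, where the lone dcKO library is assumed to vary like the controls. For the vehicle libraries, the 0 calls became 49 with no filter, 329 with DESeq2, 324 with a prior, 1 with all 12 treated libraries in the fit, and between 0 and 914 with a library left out (13 without WT vehicle replicate 3).

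Replicate numbers 2, 3 and 4 occur in both untreated groups, but deviations of same-numbered libraries correlated at -0.073, -0.368 and -0.046. Since the dcKO deviations are taken around a group that includes replicate 2, these values cannot show whether the numbers mark a shared litter or batch, and the labels do not say. With the replicate number as a block, calls went from 1 to 0 in all 7 libraries, from 1994 to 828 without dcKO replicate 2 (782 shared) and from 0 to 6 in the vehicle libraries.

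Of 129 named genes, none changed direction in 1416 comparisons with another setting. Of 118 called, 35 lost the call when some library was left out (31 without dcKO replicate 3, 26 without dcKO replicate 4), and with all 7 libraries 114 were no longer called and 3 were below the filter. Of 35 list medians, 12 moved by more than the spread of the controls with all 7 libraries. Genes of a few counts per library, such as Shox2 in controls, are limited by depth.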
